A study of Mus musculus with 8 samples.

Results

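Hypoxia-inducible factors (HIFs) and their classical targets are described here through 9 genes, chosen by name: the HIF subunits Hif1a and Epas1, the factors Vhl, Egln1 and Egln3 that act on their stability, and the targets Vegfa, Adm, Ankrd37 and Ndrg1. All 9 were found by gene symbol in both deposited tables, among 14193 genes with IL-4 and 13676 genes with PBS. In cells with enough oxygen, Egln enzymes hydroxylate prolines of the HIF alpha subunit, and the Vhl protein then marks it for destruction. In low oxygen the subunit persists, pairs with Arnt and binds DNA at short cores, ACGTG or GCGTG, near genes of angiogenesis, glycolysis and survival. Much of this control acts on protein, which these RNA data do not show. In macrophages Hif1a is known for inflammatory and glycolytic programmes, and Epas1, which encodes HIF-2 alpha, has been tied to alternative activation by IL-4.

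RNA sequencing covered bone-marrow-derived macrophages of female mice aged 12 weeks, in 4 groups of 2 libraries: NIK KO with IL-4, WT with IL-4, NIK KO with PBS and WT with PBS. NIK KO mice lack NF-κB-inducing kinase, which starts the noncanonical NF-κB pathway. Exposure lasted 6 hours, with 20 ng/mL IL-4 or with PBS. The same 2 mice of each genotype gave both treatments. Every group was grown in medium conditioned by L929 cells, a fibroblast line that supplies M-CSF. The sources used here name neither the exons removed nor any limit of the knockout to a cell type.

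The tables give 1 value per gene and comparison, so values per mouse, their overlap and the depth of each library are unknown. A level below is the mean normalized count of a group of 2 mice, recovered from the base mean and fold change of the authors' deposited table. Differences are log2 fold changes, NIK KO over WT, with their standard error (SE). Map3k14, the gene of NIK, goes against its label: its level was 832 in NIK KO and 418 in WT with IL-4, and 902 in NIK KO and 425 in WT with PBS (authors' deposited tables). NIK KO and WT therefore mean the libraries so labelled throughout. Every direction between genotypes rests on those labels and on the name of the IL-4 table, which sets NIK KO against WT; the name of the PBS table states no direction, and the same one was applied. Kpna2 and Gm10184, picked after their values were seen, had the same sign in both tables: -3.93 ± 0.25 with IL-4 and -4.58 ± 0.28 with PBS for Kpna2, and 8.44 ± 0.42 and 13.84 ± 1.47 for Gm10184 (authors' deposited tables). With IL-4 the levels of these 2 genes mirrored each other, at 133 in NIK KO and 2027 in WT for Kpna2, and 2599 and 7.50 for Gm10184. They may thus not be separate signs of direction, which was not tested. Macrophage markers were abundant. The 13 marker symbols, as 14 gene rows, summed to 539438 in NIK KO and 560373 in WT with IL-4, and to 678281 and 667180 with PBS (authors' deposited tables). Lyz2 made up most of each sum, and without it the sums were 221224 in NIK KO and 190298 in WT with IL-4, and 157122 and 153561 with PBS. Without Lyz2, 10 of 13 rows were higher in NIK KO with IL-4 and 6 with PBS, with 0 called; Adgre1, the F4/80 antigen, stood at 0.54 ± 0.18 with IL-4 (DESeq2 p = 0.00320) in the authors' deposited table. In bulk RNA, fewer cells of a type and less RNA per cell cannot be told apart.

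None of the 9 genes was called different between the genotypes under either treatment. A call needs an adjusted p under 0.05 in the authors' deposited table (DESeq2 Wald test, two-sided, Benjamini-Hochberg). With IL-4, 0 of 9 were called, against 0.12% of all genes. With PBS it was 0 of 9, against 0.0366% of all genes. At an unadjusted DESeq2 p under 0.05 there were 0 of 9 in each table, against 2.95% of genes with IL-4 and 1.24% with PBS. In libraries labelled NIK KO, 3 members were higher and 6 lower with IL-4, with a median of -0.12 (all genes -0.01). With PBS, 5 were higher and 4 lower, with a median of 0.06 (all genes -0.01). Adjusted p-values of the 9 were 0.999963 with IL-4 and 0.999994 with PBS in the authors' deposited tables. With so few mice, the intervals given below are what the data say of size: a p that misses the threshold does not show that levels were equal.

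**Figure D1:**
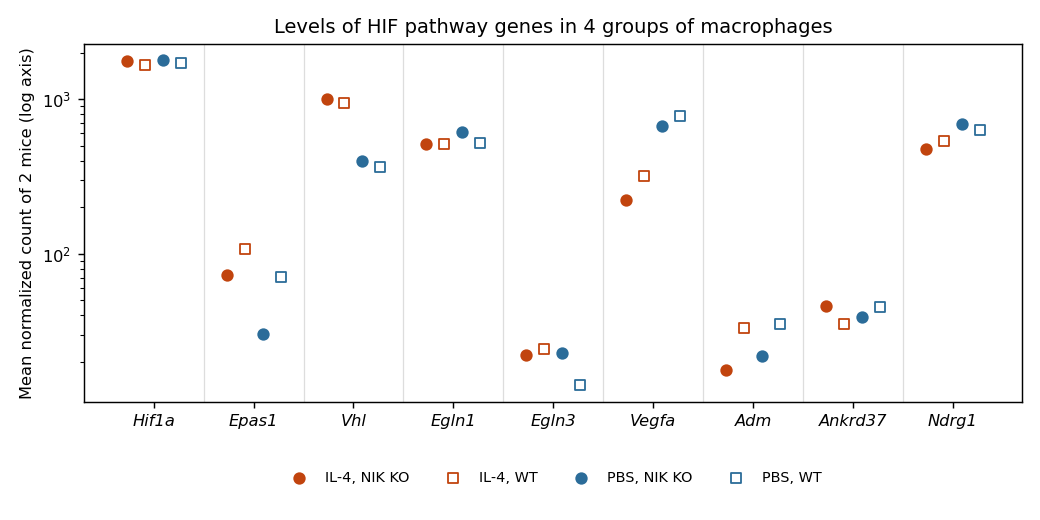
Mean normalized count (log axis) of each of the 9 genes in 4 groups of 2 mice, IL-4 in red and PBS in blue, NIK KO as filled circles and WT as open squares. Vegfa sits lower with IL-4 (223 and 320) than with PBS (670 and 782), and Vhl sits higher with IL-4. The genotypes lie farthest apart for Epas1 with PBS, then for Adm with IL-4.

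Hif1a, the oxygen-regulated alpha subunit of HIF-1 (ENSMUSG00000021109, chromosome 12), was the most abundant of the 9 genes per kilobase of transcript in all 4 groups. Its levels were 1767 in NIK KO and 1673 in WT with IL-4, and 1783 in NIK KO and 1708 in WT with PBS (authors' deposited tables). The genotypes were thus near each other within each treatment, with a difference of 0.08 ± 0.18 (SE) with IL-4 and 0.06 ± 0.27 with PBS in the authors' deposited tables. Levels under the treatments were normalized separately and are compared further on. The 95% interval of the fold ran from 0.823 to 1.36 with IL-4 and from 0.720 to 1.52 with PBS. The SE implies a coefficient of variation between libraries of about 12.5% with IL-4 and 18.9% with PBS. For the 200 genes of nearest base mean the median was 12.1% and 17.8%. Hif1a shares its strand with the annotated read-through gene Gm49321 and overlaps the antisense gene Gm15283. Of its 31-base words, 2.58% occur in other genes, so how reads were divided there is uncertain.

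The Hif1a promoter itself holds the letters that HIF complexes recognise, as 3 ACGTG matches before the start. They are shown, with those of the targets further on, because the core defines the pathway. Sequences are from RefSeq promoters of GRCm38.p6, a build other than the GRCm39 of the authors' notes, and capitals mark the core. The first stretch, at chr12:73907721-73907749 on the plus strand, has its core 134 bases before the start and reads CACGTG on both strands, so it counts as 2 of the matches. The second, at chr12:73907785-73907813 on the plus strand, has its core 70 bases before the start.
Hif1a core 1: acacagacaagcACGTGagcggggcagct
Hif1a core 2: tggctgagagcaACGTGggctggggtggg

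Epas1, the alpha subunit of HIF-2 (ENSMUSG00000024140, chromosome 17), had the lowest unadjusted p of the 9 with PBS, without being called. Its levels were 72.8 in NIK KO and 107 in WT with IL-4, and 30.4 in NIK KO and 70.6 in WT with PBS (authors' deposited tables). The libraries labelled NIK KO were on the low side under both treatments. The difference was -0.55 ± 0.46 with IL-4 (DESeq2 p = 0.227) and -1.21 ± 0.67 with PBS (DESeq2 p = 0.0696) in the authors' deposited tables. With PBS the 95% interval of the fold ran from 0.174 to 1.07, so a loss of over 5-fold and no change both lie inside it. Its SE with PBS was larger than that of 92.5% of the 200 genes of nearest base mean. Per kilobase of transcript Hif1a was 28.3 times as high as Epas1 in NIK KO and 18.3 times in WT with IL-4, and 68.5 times and 28.3 times with PBS.

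Epas1 is also a gene of endothelial and stromal cells, so their markers stand beside it. Of 10 fibroblast markers measured with IL-4, 9 were lower in libraries labelled NIK KO, with a summed level of 468 in NIK KO and 1046 in WT (authors' deposited table). The collagen gene Col3a1 was the 1 marker called lower, where 0.12% of all genes were called. At an unadjusted DESeq2 p under 0.05 there were 6 of 10 with IL-4, against 2.95% of all genes. With PBS there were 0 of 9, against 1.24%. With PBS, 5 of 9 fibroblast markers were lower, and the sums were 228 in NIK KO and 240 in WT (authors' deposited table). Without Sparc, the most abundant of them with PBS, those sums were 173 in NIK KO and 156 in WT. Of the endothelial markers, 5 of 9 were lower with IL-4 (sums of 2339 in NIK KO and 2263 in WT) and 4 of 7 with PBS (1299 and 1330), in the authors' deposited tables. Vwf made up most of each sum. Without it the sums were 739 in NIK KO and 698 in WT with IL-4, and 557 and 459 with PBS. The endothelial cadherin Cdh5 had levels of 24.1 in NIK KO and 38.9 in WT with IL-4, and 35.7 and 9.67 with PBS (authors' deposited tables). Its difference was -0.69 ± 0.74 with IL-4 and 1.89 ± 1.00 with PBS, called in neither of the authors' deposited tables. With PBS this was the widest difference among the 7 endothelial markers, at low counts. Vwf, Esam, Egfl7 and Pecam1 were lower in libraries labelled NIK KO with PBS. Emcn, Thy1 and Loxl1 have no row in either table. The part of such cells in the Epas1 values was not tested.

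Vhl, the substrate-binding part of the ubiquitin ligase that removes HIF alpha subunits (ENSMUSG00000033933, chromosome 6), stood higher with IL-4 than with PBS in both genotypes. Its levels were 995 in NIK KO and 947 in WT with IL-4, and 398 in NIK KO and 365 in WT with PBS (authors' deposited tables). The treatments lay far apart and the genotypes near each other. The genotype difference was 0.07 ± 0.21 with IL-4 and 0.13 ± 0.30 with PBS in the authors' deposited tables, with a fold between 0.791 and 1.396 with IL-4 and between 0.730 and 1.64 with PBS (95% intervals). Levels under the treatments come from tables normalized separately, and the median gene of base mean 100 or more stood 0.27 higher on the log2 scale in the IL-4 table. With that shift removed, Vhl was 2.06-fold higher with IL-4 in NIK KO and 2.15-fold in WT. That compares with an implied spread between mice of 0.26 on the log2 scale, beside log2 ratios of 1.05 and 1.10. Of 9148 such genes, 200 stood higher than Vhl by this ratio in NIK KO and 149 in WT. No test was made across the tables. None of the 31-base words of Vhl are in other genes (0%), and no annotated gene overlaps it.

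Egln1, the main prolyl hydroxylase acting on HIF (ENSMUSG00000031987, chromosome 8), had levels of 509 in NIK KO and 515 in WT with IL-4, and 617 in NIK KO and 523 in WT with PBS (authors' deposited tables). With IL-4 the genotypes were nearest to equal of all 9 genes, at -0.02 ± 0.22 in the authors' deposited table, an interval of 0.728 to 1.34 in fold. With PBS the authors' deposited table gives 0.24 ± 0.33, an interval of 0.751 to 1.85. Egln1 is itself a HIF target, and both kinds of core lie before its start, at chr8:124949364-124949392 and chr8:124949306-124949334 on the minus strand.
Egln1 core 1: gcccggcccgccGCGTGcgcgcggccccc
Egln1 core 2: gggccgtggtgtACGTGcagcgcgcgcgg

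Egln3, a hydroxylase known as strongly hypoxia-induced (ENSMUSG00000035105, chromosome 12), was barely detected. Its levels were 22.2 in NIK KO and 24.1 in WT with IL-4, and 22.7 in NIK KO and 14.1 in WT with PBS (authors' deposited tables). WT with PBS had the lowest value, within the error. The difference of -0.12 ± 0.79 with IL-4 and 0.69 ± 0.94 with PBS in the authors' deposited tables left folds from 0.314 to 2.69 and from 0.450 to 5.77 inside the 95% intervals. At this level a change of 2-fold was not detectable. Its promoter has 1 core, 229 bases before the start, at chr12:54204087-54204115 on the minus strand.
Egln3 core: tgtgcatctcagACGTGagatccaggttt

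Vegfa, the secreted angiogenic factor and best-known HIF target (ENSMUSG00000023951, chromosome 17), was lower with IL-4 than with PBS in both genotypes. Its levels were 223 in NIK KO and 320 in WT with IL-4, and 670 in NIK KO and 782 in WT with PBS (authors' deposited tables). Within each treatment the libraries labelled NIK KO were the lower pair. With the shift between tables removed, the level with IL-4 was 0.275 of that with PBS in NIK KO and 0.339 in WT, log2 ratios of -1.86 and -1.56 beside an implied spread between mice of 0.36. Of 9148 genes, 21 stood lower than Vegfa by this ratio in NIK KO and 37 in WT. This too carries no test.

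The genotype difference of Vegfa was -0.53 ± 0.34 with IL-4 (DESeq2 p = 0.118), the lowest p of the 9 in that table, and -0.22 ± 0.38 with PBS (DESeq2 p = 0.553), in the authors' deposited tables. The fold lay between 0.440 and 1.10 with IL-4 and between 0.514 and 1.43 with PBS (95% intervals). The SE of Vegfa, a value of the authors' fit, implied more variation between libraries than for genes of like level. Its SE exceeded that of 95% of the 200 genes of nearest base mean with IL-4 and 99.5% with PBS, and the implied coefficient of variation was 22.5% and 25.8%, against medians of 18.7% in each table. The annotated main start of Vegfa has no core in its window. A second RefSeq start inside the gene has 2, at chr17:46025365-46025393 and chr17:46025358-46025386 on the minus strand, which overlap each other.
Vegfa core 1, inner start: aagccctggagtGCGTGcccacgtcagag
Vegfa core 2, inner start: ggagtgcgtgccCACGTcagagagcaaca

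Adm, which encodes the vasodilator peptide adrenomedullin (ENSMUSG00000030790, chromosome 7), had low levels of 17.6 in NIK KO and 32.9 in WT with IL-4, and 21.9 in NIK KO and 35.0 in WT with PBS (authors' deposited tables). The libraries labelled NIK KO were lower under both treatments, by differences no larger than about 1 SE: -0.90 ± 0.92 with IL-4 (DESeq2 p = 0.329) and -0.68 ± 0.82 with PBS (DESeq2 p = 0.409) in the authors' deposited tables. The 95% intervals of the fold, 0.153 to 1.88 and 0.205 to 1.91, are too wide to place the gene. Adm overlaps the antisense gene Gm28863. Its promoter holds 2 GCGTG cores on the other strand, printed as CACGC, at chr7:110627555-110627583 and chr7:110627591-110627619 on the plus strand.
Adm core 1: tttagaagcaagCACGCtggagagggagg
Adm core 2: ggcaaatctgacCACGCccaccgtccgcc

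Ankrd37, an ankyrin repeat protein induced by hypoxia (ENSMUSG00000050914, chromosome 8), had levels of 46.0 in NIK KO and 35.2 in WT with IL-4, and 39.1 in NIK KO and 45.1 in WT with PBS (authors' deposited tables). The order of the genotypes differed between the treatments, within the error. The differences were 0.39 ± 0.62 with IL-4 and -0.21 ± 0.62 with PBS in the authors' deposited tables. Ankrd37 overlaps Lrp2bp and Ufsp2 on the other strand, and the sources used here do not say whether the libraries keep strand. Its promoter has 4 matches, the most of the 7 genes with a promoter here. The core nearest the start is 6 bases before it, at chr8:45999840-45999868, and the farthest 241 bases before it, at chr8:46000075-46000100, both on the minus strand.
Ankrd37 near core: cagtgtttgggtACGTGaggccgcagcgg
Ankrd37 far core: cccagcagtACGTGcctagctcggct

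Ndrg1, a stress-responsive gene used as a hypoxia marker (ENSMUSG00000005125, chromosome 15), had levels of 475 in NIK KO and 539 in WT with IL-4, and 694 in NIK KO and 632 in WT with PBS (authors' deposited tables). The IL-4 groups were the low ones in both genotypes. With the shift between tables removed, the level with IL-4 was 0.566 of that with PBS in NIK KO and 0.705 in WT, log2 ratios of -0.82 and -0.50 beside an implied spread of 0.26. Between genotypes the difference was -0.18 ± 0.25 with IL-4 and 0.14 ± 0.28 with PBS in the authors' deposited tables. Ndrg1 overlaps the noncoding genes Gm17035 and Gm2895 on the other strand. Ndrg1 and Epas1 have no promoter among the sequences used here.

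**Figure D2:**
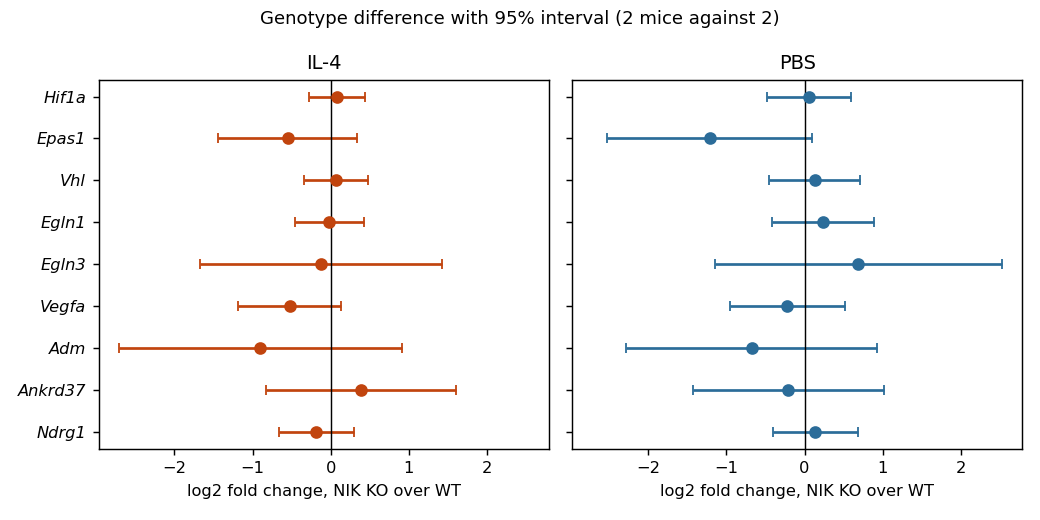
Log2 fold change, NIK KO over WT, of the 9 genes with its 95% interval, with IL-4 on the left and PBS on the right, 2 mice against 2. Every interval crosses 0, and those of Epas1, Egln3, Adm and Ankrd37, the genes of base mean under 100, are the widest.

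The matches of the 9 genes are a description of letters and say nothing of binding. Promoters were at hand for 7 genes, as 8 windows from 250 bases before to 50 bases after the start. Of these windows 6 held ACGTG or GCGTG on either strand, matches of both strands and overlaps counted, and Vhl and the main start of Vegfa held none. Of all 32851 windows of that length, 43.8% held either core, 19.6% ACGTG and 32.4% GCGTG.

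Other genes of HIF control, from a list of 16 of which 15 were measured, showed no call in either table. Of all genes, 0.12% were called with IL-4 and 0.0366% with PBS. In libraries labelled NIK KO, 7 were higher and 8 lower with IL-4 (median 0.00), and 6 higher and 9 lower with PBS (median -0.03). No gene of this list had an unadjusted DESeq2 p under 0.05 (0 in each table), against 2.95% of all genes with IL-4 and 1.24% with PBS. The lowest with IL-4 were Elob, the ligase subunit elongin B, at -0.27 ± 0.20, its ring-finger partner Rbx1 at -0.24 ± 0.21, and the hydroxylase gene Egln2 at 0.18 ± 0.19 in the authors' deposited table. With PBS they were Siah1a, a ligase for hydroxylases, at 0.39 ± 0.35, Rbx1 at -0.27 ± 0.28, and Cited2, which competes with HIF for its coactivators, at -0.24 ± 0.25 in the authors' deposited table. Of the words of Elob 47.7% and of those of Siah1a 35.0% occur in other genes, so their values are uncertain.

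Glycolytic HIF targets were not called either (0 of 20 rows for 19 symbols, Aldoa having a second row of base mean under 10). The share called over all genes was 0.12% with IL-4 and 0.0366% with PBS. With IL-4, 12 rows were higher and 8 lower in those of NIK KO, with a median of 0.01. With PBS, 8 were higher and 12 lower, with a median of -0.02. Gapdh, a glycolytic dehydrogenase, was the 1 gene at an unadjusted DESeq2 p under 0.05, with IL-4, where 2.95% of all genes were. Its levels were 15825 in NIK KO and 20965 in WT, a difference of -0.41 ± 0.20 (DESeq2 p = 0.0422), against -0.19 ± 0.31 with PBS, in the authors' deposited tables. Gapdh has many pseudogenes, and 30.7% of its words are in other genes. With PBS the largest statistics belonged to the hexokinase Hk2 (0.41 ± 0.26), the glucose transporter Slc2a1 (-0.41 ± 0.33) and Pdk1, a kinase that holds back pyruvate dehydrogenase (-0.32 ± 0.27), in the authors' deposited table. These genes lay on both sides of 0.

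Among 32 other HIF targets, of which Slc2a1 and Pfkfb3 are also on the glycolytic list, 30 were measured and 0 called in each table. Over all genes the share called was 0.12% with IL-4 and 0.0366% with PBS. In libraries labelled NIK KO, 15 were higher and 15 lower with IL-4 (median -0.01), and 14 higher and 16 lower with PBS (median -0.05). At an unadjusted DESeq2 p under 0.05 there were 3 genes with IL-4 and 0 with PBS, against 2.95% and 1.24% of all genes. Zfp395, a zinc-finger protein, had levels of 313 in NIK KO and 185 in WT with IL-4, a difference of 0.76 ± 0.34 (DESeq2 p = 0.0251) in the authors' deposited table. The mitochondrial proteins Fam162a and Higd1a were on the other side, at -0.60 ± 0.27 (272 in NIK KO and 413 in WT, DESeq2 p = 0.0252) and -0.47 ± 0.23 (396 and 549, DESeq2 p = 0.0369) with IL-4 in the authors' deposited table. With PBS, Zfp395 was at 0.29 ± 0.44, Fam162a at -0.29 ± 0.34 and Higd1a at 0.27 ± 0.32 in the authors' deposited table. The largest statistics with PBS were those of the transferrin receptor Tfrc (0.48 ± 0.26), the lipid droplet protein Plin2 (0.35 ± 0.24) and the glycogen enzyme Gbe1 (0.41 ± 0.28), in the authors' deposited table.

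With IL-4, fold changes moved with transcript length. Among 5 equal classes of genes by length, the median was -0.13 in the shortest class and 0.11 in the longest, against -0.02 and 0.00 with PBS. Fam162a has a longest transcript of 718 bases. With a trend on length subtracted, it stood at -0.37 (DESeq2 Wald p recomputed, 0.167), and Higd1a at -0.42 (0.0634). Gapdh stayed at -0.41 (DESeq2 Wald p recomputed, 0.0398) and Zfp395 at 0.72 (0.0329). The longest annotated transcript of Gapdh has 3289 bases, in the middle class by length, where the median with IL-4 was -0.0004. The trend could thus hardly move Gapdh, and which transcript these cells used was not examined.

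**Figure D3:**
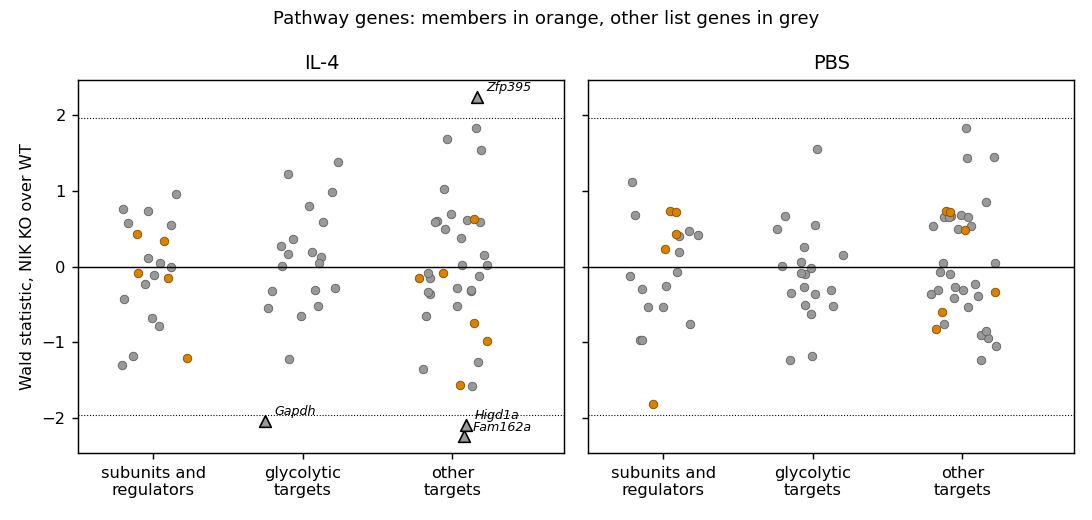
Wald statistic (log2 fold change over its SE), NIK KO over WT, of the genes of 3 HIF lists, with IL-4 on the left and PBS on the right; members are orange, other genes grey, and Egln1, Egln3, Slc2a1 and Pfkfb3 appear in 2 lists. Dotted lines mark an unadjusted p of 0.05, which only Gapdh, Fam162a, Higd1a and Zfp395 pass (triangles), all with IL-4.

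The effect of genotype did not pass as different between the treatments for any of the 9 genes. The difference of the log2 fold changes, IL-4 minus PBS, was tested against the root of the summed squared SEs (z test, two-sided, adjusted over 13384 genes). Of the 9, 0 were called, against 0.0149% of genes, and 0 had an unadjusted p under 0.05, against 0.867%. The differences ran from -0.81 for Egln3 to 0.66 for Epas1, with unadjusted p from 0.393 (Ndrg1) to 0.960 (Hif1a) in this z test across all genes. For Hif1a the difference was 0.02 ± 0.33, with an interval of -0.63 to 0.66, and for Vegfa it was -0.30 ± 0.50, with an interval of -1.29 to 0.69. For Ndrg1 it was -0.32 ± 0.37 and for Epas1 0.66 ± 0.81. The same mice stand behind both tables, so their errors may not be independent. If the PBS table ran WT over NIK KO instead, Epas1 would differ by -1.76 ± 0.81 (unadjusted p = 0.0293 in this z test across all genes), and 0 of the 9 would be called. On that reading Kpna2, Gm10184 and Map3k14 would each take opposite signs with IL-4 and with PBS in the same mice.

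Between treatments, the pathway was uneven. Of 57 genes of the lists and the 9 with a base mean of 100 or more in both tables, 5 of them members, 6 differed at least 2-fold in both genotypes once the shift between tables was removed. Higher with IL-4 were 4: Vhl, Flt1, Tfrc and Bhlhe40, against 1.71% of all genes, and lower were Vegfa and Hmox1, against 1.42%. Flt1, Tfrc, Bhlhe40 and Hmox1 are no members and were picked here after their values were seen. Flt1, a receptor for Vegfa, had levels of 4936 in NIK KO and 3909 in WT with IL-4, and 85.5 in NIK KO and 116 in WT with PBS (authors' deposited tables). The ligand and its receptor thus lay on opposite sides, Flt1 47.7-fold higher with IL-4 in NIK KO and 27.9-fold in WT. Tfrc was 4.96-fold higher in NIK KO and 5.65-fold in WT, and Bhlhe40, a transcription factor, 5.71-fold and 4.69-fold. Hmox1, which encodes the haem-degrading enzyme, had 0.480 of its PBS level in NIK KO and 0.439 in WT. Which genes pass 2-fold depends on the scale. As deposited, without the shift removed, the glycolytic targets Pfkp and Pfkfb4 were also over 2-fold higher in both genotypes. Log2 ratios were 1.53 in NIK KO and 1.20 in WT for Pfkp, and 1.35 and 1.21 for Pfkfb4. Hmox1 as deposited was at -0.78 and -0.91, short of 2-fold. Hif1a itself stood at 0.819 of its PBS level in NIK KO and 0.810 in WT, and Egln1 at 0.682 and 0.814. On the log2 scale these are -0.29 and -0.30 for Hif1a, beside an implied spread between mice of 0.23. For Egln1 they are -0.55 and -0.30, beside 0.28. As deposited, Hif1a was at 0.991 in NIK KO and 0.979 in WT, and Egln1 at 0.825 and 0.985, all within that spread.

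As a check of the stimulus, Arg1, an IL-4-induced enzyme, had levels of 7136 in NIK KO and 8190 in WT with IL-4, and 17.3 in NIK KO and 30.5 in WT with PBS (authors' deposited tables). Of the low members, Epas1 stood at 1.98 of its PBS level in NIK KO and 1.25 in WT, beside an implied spread between mice of 0.58 and 0.56 on the log2 scale. Egln3 was at 0.808 and 1.42, Adm at 0.665 and 0.777, and Ankrd37 at 0.973 and 0.646, with implied spreads of 0.62 to 0.89. As deposited, without the shift removed, Ankrd37 in NIK KO stood on the other side, at 1.18 of its PBS level. Those 3 cannot be placed between the treatments at these levels.

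**Figure D4:**
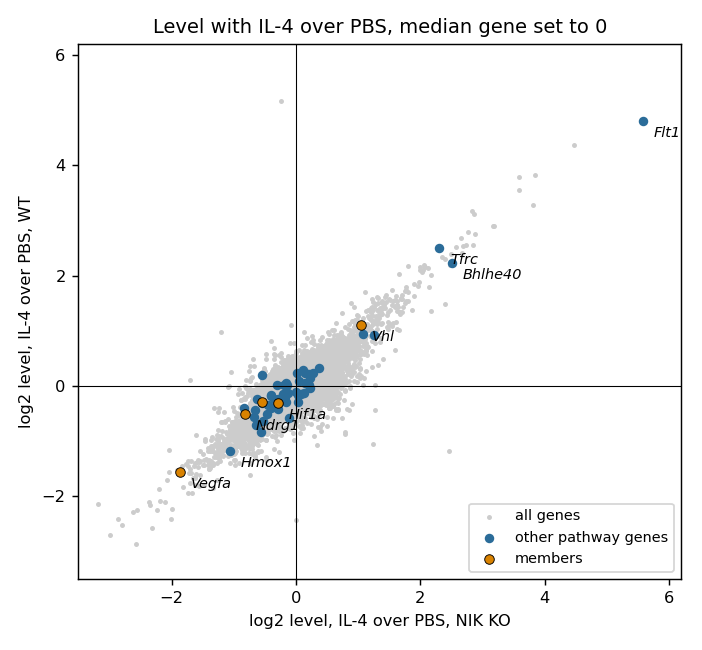
Log2 level with IL-4 over PBS in NIK KO (horizontal) and WT (vertical), with the median gene set to 0, for 9148 genes of base mean 100 or more (grey), other pathway genes (blue) and the 5 members that reach that level (orange). Vegfa lies at the low end and Vhl at the high end in both genotypes, with Flt1 farthest out of the pathway genes, and no value carries a test.

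Per kilobase of longest transcript, the order of the members moved with the treatment. With IL-4 the order from high to low was Hif1a, Vhl, Egln1, Ndrg1, Vegfa, Ankrd37 in both genotypes, at 374, 356, 142, 117, 64.5 and 49.7 normalized counts per kilobase in NIK KO and 354, 339, 143, 133, 92.8 and 38.0 in WT. Hif1a and Vhl differed by less than the implied spread between libraries of either, as did Egln1 and Ndrg1 in WT. With PBS, Vegfa was second after Hif1a, at 194 in NIK KO and 227 in WT, and Vhl lay lower, at 143 and 131. Between Vegfa and Vhl stood Egln1, at 172 in NIK KO and 146 in WT, and Ndrg1, at 171 and 156, which again differed by less than their implied spread. In NIK KO, Vegfa also stood above Egln1 and Ndrg1 by less than its implied coefficient of variation of 25.8%. In WT, Egln1 stood above Vhl by less than the implied coefficient of variation of either. Epas1, Egln3 and Adm were the low 3 in every group, between 5.29 and 25.2.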

How the data were processed

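RNA sequencing of 8 libraries was deposited as 2 tables of results per gene, each tied by the labels to 4 libraries. The submitters' processing notes list Salmon 1.4.0, DESeq2 1.32.0 and build GRCm39; the sources used here name no annotation or filter. As deposited, and per the file headers, the columns are a base mean (a signal: the average of counts over size factors), the log2 fold change and its SE, the Wald statistic (a score), and the p-value and adjusted p-value. The IL-4 table is named for NIK KO against WT, and this direction was applied to both; the name of the PBS table states none. No counts per library were used, so the depth is unknown; the SE sets the precision, with a median of 0.22 with IL-4 and 0.30 with PBS among genes of base mean 100 or more. Nothing says beyond mouse numbers that libraries are separate cultures.

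Group means were recovered from base mean and fold change. The implied coefficient of variation is the root of the squared SE (natural log) less the counting part, assuming equal size factors. The implied spread between mice, given beside level ratios, averages the squared variation of both treatments. It keeps the counting part, and its root is given on the log2 scale. Both measures come from the fitted SE, not from values measured per library. Intervals are 95% and normal. The 9 genes and the lists were chosen with earlier results of these data known. All members are named; from lists, genes at an unadjusted p under 0.05 in a table, otherwise the 3 of largest statistic. Marker lists cover macrophages, fibroblasts and endothelium; those of erythroid, neutrophil, lymphoid and IL-4-induced genes are given below. Sequence sharing, overlaps and lengths come from GENCODE M21. Alternatives changed the filter, the adjustment, the reference distribution, centring, trends and scales. Steps were tested on simulated data. Python 3.11.15, numpy 2.4.6, pandas 2.3.3, scipy 1.17.1, statsmodels 0.14.6 and matplotlib 3.10.9 were used.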

Additional observations from a re-analysis of the deposited data

How the results depend on the processing

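Of 54 values of the 9 genes between genotypes under the 3 alternatives that move a fold change (recentring and the trends on base mean and transcript length), 53 kept their direction, and no member was called under any alternative (adjusted p from 0.999957 to 1). The exception was Egln3 with IL-4, at 0.0091 with a trend on base mean subtracted. Recentring moved values by only 0.0123 with IL-4 and 0.000255 with PBS. That is less than any member's log2 fold change, so recentring could reverse none of them. With 2 degrees of freedom in a t distribution, 0 genes were called with IL-4 (17 as deposited) and 0 with PBS (5 as deposited), Map3k14 with IL-4 was lost (adjusted p = 0.999978), and the 4 pathway genes at an unadjusted p under 0.05 with IL-4 became 0; with a trend on transcript length subtracted they were 3 (Gapdh, Plin2 and Zfp395). In the difference between treatments, 2 genes of all were called, 20 with errors correlated 0.5 and 0 with 4 degrees of freedom in a t distribution; of the 9, 0 were called in each. Rescaling moved the levels with IL-4 over PBS by 0.22 (equal sums) or 0.27 (median ratio of 1) on the log2 scale. By sign alone, 2 members, Vhl and Epas1, stood higher in both genotypes on all 3 scales. Another 5, Hif1a, Egln1, Vegfa, Adm and Ndrg1, stood lower, Hif1a moving to -0.29 in NIK KO and -0.30 in WT. Values within the implied spread between mice included Adm on all 3 scales. They also included Hif1a, Egln1 and, in WT, Ndrg1 as deposited, and Epas1 in WT once rescaled. The trend on transcript length was added after the data were seen. No paired analysis was possible because the tables hold 1 value per gene and comparison, and for the same reason no mouse could be left out. Unknown depth and 2 mice a side limit the genes of base mean under 100 most.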

Other observations

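The remaining marker lists gave these values in the authors' deposited tables. Of 6 erythroid markers with IL-4, 4 were lower in the libraries labelled NIK KO, with summed levels of 158 in NIK KO and 344 in WT, and with PBS the sums of 5 markers were 103 and 96.1. Of the 6 erythroid markers with IL-4, 4 had an unadjusted p under 0.05 (DESeq2 Wald test), against 2.95% of all genes. With PBS it was 0 of 5, against 1.24%, and 0 were called in either case. Neutrophil markers summed to 2741 in NIK KO and 2112 in WT with IL-4, mostly Csf3r, and to 844 and 801 with PBS. Without Csf3r they summed to 173 in NIK KO and 242 in WT with IL-4, and to 203 and 224 with PBS. S100a8 stood at -0.80 ± 0.40 with IL-4 (DESeq2 Wald test across all genes, unadjusted p = 0.0445), not called. Of 10 lymphoid markers, 4 had a row with IL-4 (52.9 in NIK KO and 64.7 in WT) and 2 with PBS (35.6 and 27.2). IL-4-induced genes summed to 40731 in NIK KO and 39798 in WT with IL-4, and to 1770 and 1639 with PBS. Mrc1 made up most of these sums, and without it they were 13732 in NIK KO and 15082 in WT with IL-4, and 226 and 197 with PBS. With IL-4, 4 of the other 8 genes were higher and 4 lower in libraries labelled NIK KO. Chil3 stood at -0.43 ± 0.18 with IL-4 (DESeq2 Wald test across all genes, unadjusted p = 0.0139), not called.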
